A study of Mus musculus with 42 samples.

Results

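Cortex microglia of germ-free mice given acetate were compared with cortex microglia of specific-pathogen-free (SPF) mice, to see what acetate leaves unlike SPF and what it moves past SPF. The members are the 8 wild-type cortex libraries of these conditions, chosen by their column names, of 42 samples in all: SPF1, SPF2, SPF3 and SPF4, and GFA518, GFA523, GFA524 and GFA525. Germ-free mice carry no microbes, while SPF mice carry a microbiota without defined pathogens. The study sequenced RNA in bulk from microglia sorted as CD11b+ CD45lo cells after a density gradient, from whole brain, cortex and hippocampus. Every animal was labelled C57BL/6 with no substrain. Those used for cortex and hippocampus were 16 weeks old, and those used for whole brain 6 to 12 weeks. Acetate was added to the drinking water of wild-type and 5xFAD germ-free mice for 8 weeks. A treatment of 4 weeks is named in the labels as well, with no library tied to it. Cortex libraries of 4 untreated germ-free wild-type mice (GF528, GF529, GF530 and GF532) stand beside the comparison. The 5xFAD mice, sampled from hippocampus, carry human transgenes with familial Alzheimer mutations driven by the neuronal Thy1 promoter. Within a region each library has its own animal number, and the labels do not say how cages or litters were arranged, so the p-values set the differences against the spread among these libraries alone.

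Acetate is one of the short-chain fatty acids that gut bacteria make by fermenting fibre, and it reaches the brain through the blood. Cells turn it into acetyl-CoA, which feeds the tricarboxylic acid (TCA) cycle, lipid synthesis and the acetylation of histones. Microglia are the resident macrophages of the brain, and in mice raised without microbes they are known for an immature state. Levels are given as CPM, read counts scaled to a common library total, which do not correct for gene length, so levels are compared between libraries and not between genes. In bulk RNA, fewer cells of a type and less RNA per cell cannot be told apart.

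Total counts per cortex library ran from 16029152 to 23860490 in SPF, from 15790383 to 20971468 in GF and from 18833352 to 22907927 with acetate. The cells carried microglial markers, as their label calls for: P2ry12 was at 5350 to 6990 CPM in SPF and 6670 to 8270 CPM with acetate, and Tmem119 at 3090 to 4950 CPM and 4220 to 5340 CPM. Markers of 11 neutrophil genes summed to at most 0.465 CPM in SPF and at most 18.5 CPM with acetate, the latter in GFA524, where S100a8 was at 9.41 and S100a9 at 6.15 CPM. Summed astrocyte markers were at 300 to 388 CPM in SPF and 229 to 325 CPM with acetate, nearly all of it Slc1a3 (297 to 378 and 225 to 319 CPM). Of the hippocampus libraries used for look-ups, 5xFAD SPF2142 had the fewest counts, at 5743891, and SPF4 the fewest of the wild type, at 5862938. The library labelled 5xFAD SPF2152 went against its label in Cst7, a gene of disease-associated microglia. Cst7 was at 13.1 CPM there, against 374 to 502 CPM in the other 5xFAD SPF libraries and 10 to 22 CPM in wild-type SPF. Apoe was at 435 CPM there, at 3170 to 6170 CPM in the other 5xFAD SPF libraries and at 242 to 387 CPM in wild-type SPF. The part of these other cells in the results below was not tested, other than by leaving out each library in turn.

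Of 15113 genes tested, 55 (0.364%) differed between acetate-treated germ-free and SPF cortex at an adjusted p under 0.05, by edgeR's quasi-likelihood test with Benjamini-Hochberg adjustment over all genes, two-sided. With acetate 34 were higher (0.225%) and 21 lower (0.139%). The genes higher with acetate included Gpr137b, Glrp1, Wdfy1, Lgals8, Nnt and Serpine2, and those lower D2hgdh, Mrc1, Rassf4 and Mcm6. In all 55 the 4 acetate libraries lay on one side of the 4 SPF libraries, as they did in 645 (4.27%) of the genes tested. A mean of at least 5 CPM in either group was reached by 42 of them that are not predicted gene models, 27 higher and 15 lower. DESeq2 called 136 genes, all 55 among them. Leaving out 1 library at a time gave 25 to 55 calls. Of the 55 genes, 25 stayed called without GFA523, 26 without SPF2, 29 without GFA524, 33 without SPF3, 34 without GFA518, 34 without GFA525, 35 without SPF4 and 42 without SPF1. Across every alternative that tested them 23 stayed called, 32 lost the call at least once, and 0 changed sign.

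**Figure D1:**
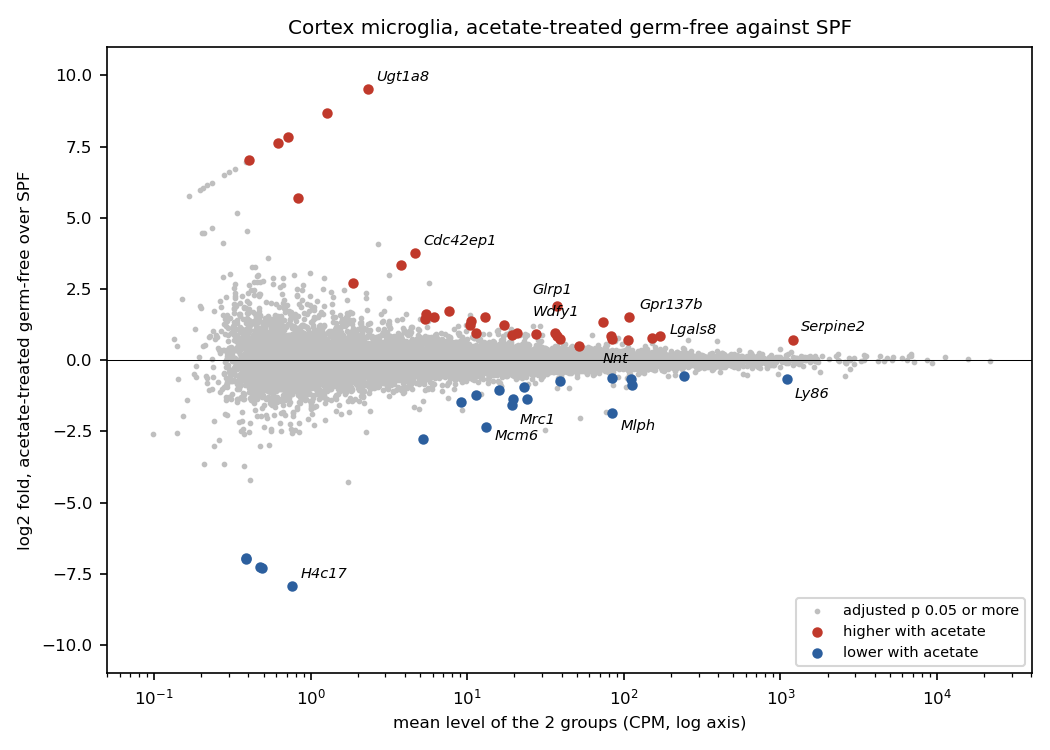
Mean level of the SPF and acetate groups (horizontal, CPM on a log axis) against the fitted log2 fold of acetate over SPF (vertical) for each of 15113 genes, with the 34 genes called higher and the 21 called lower coloured. Most called genes above 5 CPM lie within a few log2 units of 0, and the points far above and below have 1 group at or near 0, where the fitted fold depends on the prior count and is no measure of size.

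Of the 55 genes, 35 also differed in the same direction between untreated GF and SPF (25 higher, 10 lower), where 259 of 15113 genes (1.71%) were called, 0.873% higher and 0.84% lower, and 0 were called in the opposite direction. These comparisons share the SPF libraries, so their values are given side by side and nothing is read from that count. The other 20 were not called in GF, which does not show that GF was like SPF there. Between acetate and GF 147 genes (0.973%) were called, and 7 of the 55 were among them in the same direction as against SPF: Serpine2, Upk1b and Nsmf higher, and D2hgdh, Mlph, Dbi and Fam83c lower.

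The genes higher than in SPF both with acetate and in untreated GF come first. In all that follows, values in single libraries are in the order SPF1, SPF2, SPF3, SPF4, then GF528, GF529, GF530, GF532, then GFA518, GFA523, GFA524, GFA525. Gpr137b, a lysosomal membrane protein, was at 55.6, 60, 59.1 and 49.3 CPM in SPF, 116, 90, 112 and 149 CPM in GF, and 175, 179, 165 and 121 CPM with acetate. All GF and acetate libraries lay above all SPF libraries, with GFA525 lowest of the acetate libraries. The difference from SPF was 2.84-fold (log2 1.5 ± 0.15 SE, edgeR adjusted p = 5.75e-05), against log2 1.05 (0.00106) for GF. Gpr137b has a near-identical copy, Gpr137b-ps, and the levels of both summed were closer, at 133 to 151 CPM in SPF and 169 to 192 CPM with acetate. Wdfy1, a FYVE-domain protein of early endosomes, was at 39.7, 27.7, 49.6 and 48.4 CPM in SPF, 71.4, 105, 62 and 73 CPM in GF, and 105, 99.7, 111 and 107 CPM with acetate. The acetate libraries were close together and at 2.54 times the SPF level (log2 1.35 ± 0.17, adjusted p = 0.00139), and GF529 was the only untreated library within their range. Lgals8, the galectin that binds sugars exposed on damaged endosomes and lysosomes, was at 120, 100, 131 and 133 CPM in SPF, 180, 170, 196 and 231 CPM in GF, and 225, 235, 204 and 204 CPM with acetate. It was 1.78-fold higher with acetate (log2 0.83 ± 0.11, adjusted p = 0.00187), and neither the GF nor the acetate libraries overlapped SPF.

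Nnt, the mitochondrial transhydrogenase that makes NADPH from NADH and is known for a partial deletion in the C57BL/6J substrain, was at 72.3, 51.3, 50.7 and 58.8 CPM in SPF, 97.9, 86.2, 95 and 105 CPM in GF, and 92.9, 116, 109 and 107 CPM with acetate. It was 1.81-fold higher with acetate (log2 0.86 ± 0.12, edgeR adjusted p = 0.0022), and the GF and acetate libraries overlapped each other. Apbb1, the adaptor Fe65 that binds the tail of the amyloid precursor protein, was at 5.28, 5.62, 5.82 and 7.99 CPM in SPF, 16.5, 14.4, 17.7 and 15 CPM in GF, and 13.7, 18.5, 14.8 and 11.8 CPM with acetate. Its difference was 2.37-fold (log2 1.24 ± 0.20, adjusted p = 0.00571). Abcg3, a rodent transporter of the ABC family, was at 11.3, 9.08, 8.43 and 11.7 CPM in SPF, 19.2, 13.2, 23.2 and 21.1 CPM in GF, and 25.8, 23.9, 20.5 and 25.9 CPM with acetate. The groups did not overlap SPF, and the difference was 2.36-fold (log2 1.24 ± 0.19, adjusted p = 0.00396).

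Glrp1, a glutamine repeat protein, was at 12.9, 15.6, 13.4 and 21.5 CPM in SPF, 33.7, 38.1, 34.6 and 34.1 CPM in GF, and 43.2, 58, 54.6 and 80.7 CPM with acetate. The 3 groups did not overlap one another. Glrp1 was 3.71-fold higher with acetate than in SPF (log2 1.89 ± 0.19, edgeR adjusted p = 6.2e-05), and the step from GF to acetate did not pass (log2 0.75, adjusted p = 0.061). Kcp, a secreted modulator of bone morphogenetic proteins, was at 4.09, 3.55, 2.17 and 4.05 CPM in SPF, 11.2, 7.03, 9.79 and 6.63 CPM in GF, and 7.87, 10.7, 11.8 and 16.5 CPM with acetate (3.35-fold, log2 1.75 ± 0.28, adjusted p = 0.00591). Emp2, a tetraspan membrane protein, was at 0.673, 0.253, 0.887 and 0.908 CPM in SPF, 1.59, 1.94, 7.06 and 6.94 CPM in GF, and 4.25, 9.32, 8.45 and 5.54 CPM with acetate. Both genes were above SPF in every GF and acetate library, and the difference for Emp2 was 10.1-fold (adjusted p = 0.00571).

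A pair of neighbours on chromosome 17 behaved alike. Dynlt1b, a dynein light chain, was at 3, 2.87, 3.15 and 2.42 CPM in SPF, 8.76, 5.64, 8.49 and 8.43 CPM in GF, and 7.56, 6.97, 8.07 and 8.94 CPM with acetate (2.73-fold, edgeR adjusted p = 0.00571). The pseudogene Tmem181b-ps was at 5.64, 6.17, 8.18 and 6.35 CPM in SPF, 20.6, 11, 15.7 and 13.4 CPM in GF, and 23.8, 15.2, 16.8 and 21 CPM with acetate (2.89-fold, adjusted p = 0.0022). Neither gene overlapped between SPF and the other libraries. Dynlt1b and Tmem181b-ps each have near-identical copies, so reads could be split among copies and their levels are uncertain.

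Other genes higher both in GF and with acetate were Cdc42ep1, a Cdc42 effector (0.609 ± 0.502 CPM SD in SPF, n = 4, and 8.62 ± 2.91 with acetate), Rgs11, a regulator of G protein signalling (3.18 ± 0.547 and 9.12 ± 3.23), and Hmgn3, a nucleosome-binding protein (2.66 ± 0.981 and 8.30 ± 1.72). Tnfsf13b, the B cell survival factor BAFF, was at 26.8 ± 4.30 CPM in SPF, 60 ± 7.61 in GF and 48.2 ± 9.62 with acetate (1.79-fold, edgeR adjusted p = 0.0202). The actin-capping gene Capg was at 18.9 ± 2.64 and 36 ± 5.14 CPM, the calpain Capn2 at 5.81 ± 2.72 and 15.4 ± 2.69 CPM, and the secreted protease Htra3 at 14.2 ± 3.94 and 27.5 ± 4.46 CPM in SPF and with acetate. Adjusted p-values of these 7 ran up to 0.0388. All but Cdc42ep1 lost the call with 1 library left out: Rgs11 without SPF2, GFA518 or GFA523 (adjusted p up to 0.0611), and Hmgn3 without SPF2, SPF4, GFA523 or GFA524 (up to 0.0902). The others lost it without GFA523 and further libraries, at adjusted p up to 0.0912 for Tnfsf13b, 0.117 for Capg, 0.104 for Capn2 and 0.164 for Htra3.

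Some genes under 5 CPM were at 0 in every SPF library and present in GF and with acetate, and those named here were chosen after their values were seen. Ugt1a8, a glucuronosyltransferase, was at 0 in SPF, 3.83, 5.46, 3.04 and 2.98 CPM in GF, and 4.83, 3.70, 4.42 and 5.54 CPM with acetate. Against a floor of 3 counts per SPF library this was at least 30.2-fold higher with acetate (edgeR adjusted p = 1.2e-05). Ugt1a9, at 0 in SPF and 1.22 to 1.86 CPM with acetate, shares exons with Ugt1a8, so the split of reads between both is uncertain. The pseudogene Tmem181c-ps was at 0 in SPF and 0.468 to 0.987 CPM with acetate.

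Genes lower than in SPF both with acetate and in GF were fewer. Mrc1, the mannose receptor CD206, was at 30.6, 34.2, 30 and 19.9 CPM in SPF, 10.6, 6.75, 11 and 9.46 CPM in GF, and 12.6, 10.3, 6.53 and 9.43 CPM with acetate. It was 2.97-fold lower with acetate (log2 -1.57 ± 0.22 SE, edgeR adjusted p = 0.0022), and the GF and acetate libraries overlapped. Mrc1 marks macrophages of the brain borders. Of 13 such markers 5 could be tested, 0 were called higher and only Mrc1 lower, where 0.139% of all genes were called lower. The list's median was log2 -0.50 against -0.01 over all genes tested. The summed level of the 13 was 734 to 1050 CPM in SPF and 692 to 860 CPM with acetate, mostly Stab1. Lyve1 was at 0 in every cortex library, Cd163 was at 0 in every SPF and acetate library, and Pf4 reached at most 0.394 CPM in SPF and 0.110 CPM with acetate.

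Rassf4, a Ras-association domain protein, was at 261, 311, 277 and 301 CPM in SPF, 208, 204, 233 and 193 CPM in GF, and 188, 188, 204 and 204 CPM with acetate. It was 1.48-fold lower with acetate (log2 -0.56 ± 0.09, edgeR adjusted p = 0.00527), with no overlap. Lag3, an inhibitory receptor that mouse microglia express at rest, was at 49.8, 55.2, 50.4 and 40.7 CPM in SPF, 25.4, 25, 19 and 20 CPM in GF, and 27, 29.3, 30 and 32.1 CPM with acetate. The acetate libraries lay between GF and SPF without touching either (log2 -0.74 ± 0.14 against SPF, adjusted p = 0.0202). Ide, the insulin-degrading enzyme, which also cleaves amyloid beta, was at 133, 165, 107 and 139 CPM in SPF, 84.4, 89.3, 82.6 and 89 CPM in GF, and 105, 81.7, 73 and 83.9 CPM with acetate (1.59-fold lower, adjusted p = 0.0216). Its margin between groups was narrow, GFA518 at 105 against SPF3 at 107 CPM. Lag3 and Ide lost the call without SPF2 or any 1 of GFA523, GFA524 and GFA525, among others (adjusted p up to 0.0921 and 0.11), while Mrc1 and Rassf4 stayed called.

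Mcur1, a regulator of the mitochondrial calcium uniporter, was at 145 ± 16.8 CPM (SD, n = 4) in SPF, 76.5 ± 17.1 in GF and 80.4 ± 22.2 with acetate. The replication-dependent histone gene H3c6 was at 13.4 ± 2.19 CPM in SPF, 4.37 ± 1.59 in GF and 4.89 ± 1.71 with acetate. Histone genes are near-identical copies, so these reads may be shared with others. By edgeR the adjusted p was 0.0347 for Mcur1 and 0.043 for H3c6. H3c6 lost the call without any 1 of the 8 libraries (up to 0.148), and Mcur1 without any 1 but GFA523 (up to 0.165). The low-level histone gene H4c17, chosen after its values were seen, was at 1.27 to 1.90 CPM in SPF and at 0 in every GF and acetate library, and was called in each alternative that tested it but the one without SPF2 (adjusted p = 0.0577).

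**Figure D2:**
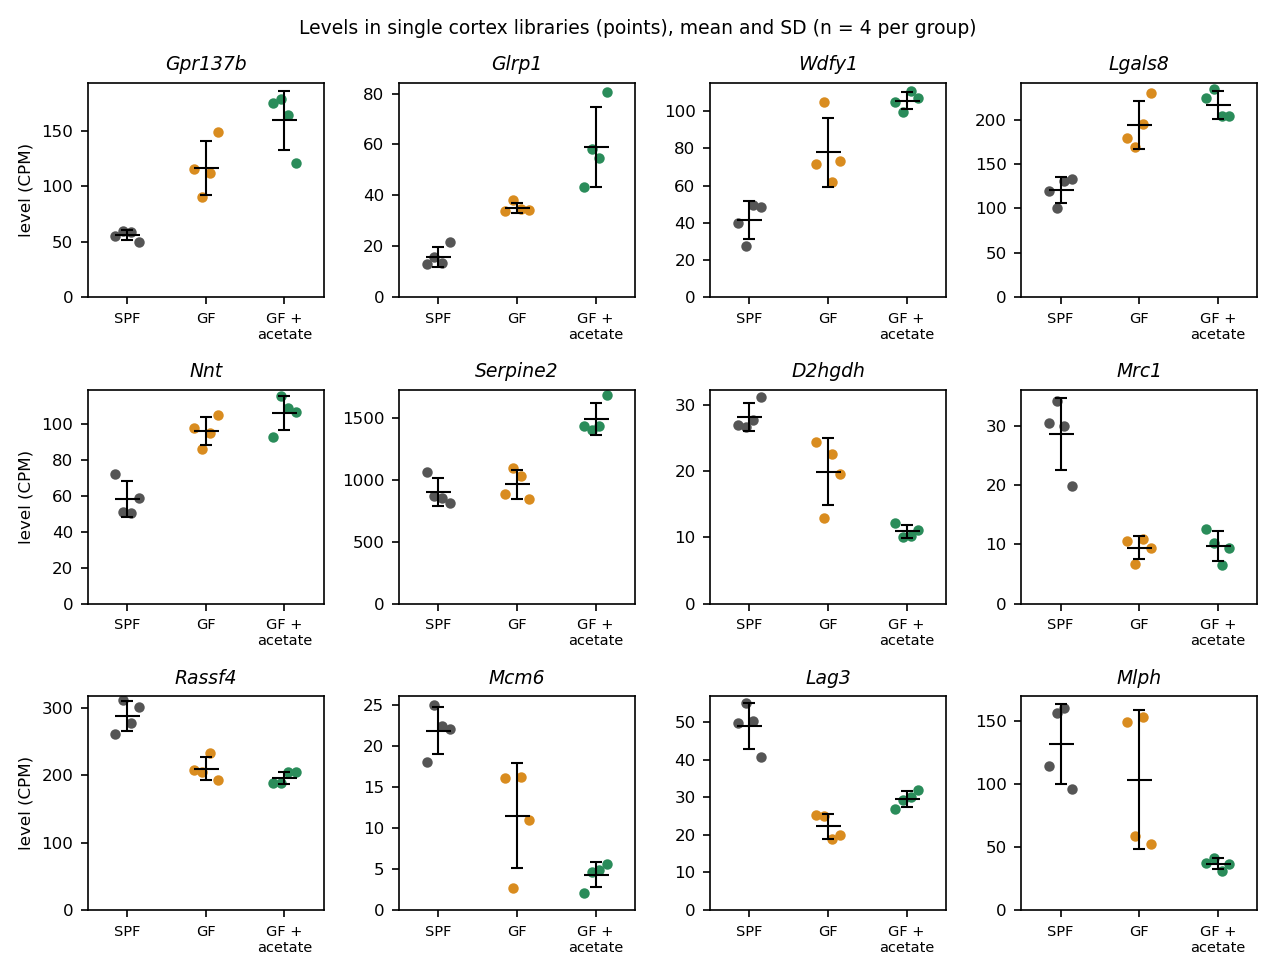
Levels in CPM (vertical) of 12 called genes in the SPF, GF and GF plus acetate cortex libraries (points, n = 4 per group), with the mean and SD as a line and bars. In Nnt and Mrc1 the GF and acetate libraries overlapped each other and not SPF, while Serpine2, D2hgdh and Mlph were furthest from SPF with acetate. The GF libraries of D2hgdh lay between both other groups. Some GF libraries of Mlph lay within the SPF range, and GF529 lay within the acetate range for Mcm6.

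Other genes set acetate apart from SPF without a call in untreated GF. Serpine2, the protease inhibitor nexin-1, was at 1070, 872, 853 and 815 CPM in SPF, 891, 1100, 1030 and 846 CPM in GF, and 1440, 1410, 1440 and 1690 CPM with acetate. The acetate libraries lay above all 8 others, while SPF and GF overlapped. Serpine2 was 1.65-fold higher than in SPF (log2 0.72 ± 0.11 SE, edgeR adjusted p = 0.00325) and higher than in GF (log2 0.63, adjusted p = 0.00902). Upk1b, a uroplakin of the tetraspan family, was at 110 ± 10.7 CPM (SD, n = 4) in SPF, 111 ± 31.1 in GF and 192 ± 24.8 with acetate (1.73-fold over SPF, adjusted p = 0.0347). Nsmf, known from neurons as a messenger between synapse and nucleus, was at 42.3 ± 1.80, 41.7 ± 3.40 and 60.6 ± 4.10 CPM (1.42-fold over SPF, adjusted p = 0.0439). Upk1b lost its call without any 1 library but SPF1 and GFA518 (adjusted p up to 0.152) and Nsmf without any 1 of the 8 (up to 0.139), while Serpine2 kept it throughout.

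Arl4c, a small GTPase, was at 79.9 ± 8.19 CPM (SD, n = 4) in SPF and 132 ± 17.6 with acetate, and Tgm2, the tissue transglutaminase, at 62.3 ± 10.1 and 105 ± 5.55 CPM. The adhesion molecule Jam3 was at 13.5 ± 0.866 and 25.3 ± 5.46 CPM, Emp3 at 7.72 ± 0.660 and 15 ± 2.94 CPM, Trp53i11 at 24.7 ± 6.80 and 48.1 ± 5.89 CPM, and the peptidase Naalad2 at 29.2 ± 4.77 and 49 ± 6.31 CPM. Their GF means of 99.05, 72, 21.6, 12.4, 29.6 and 32.6 CPM all lay between SPF and acetate. By edgeR their adjusted p-values against SPF ran from 0.0129 for Arl4c to 0.0319 for Naalad2. Arl4c lost the call without SPF3, GFA523 or GFA524 (adjusted p up to 0.0657). The other 5 lost it without SPF2, SPF3, GFA523 or GFA525, among others, with adjusted p up to 0.136 for Trp53i11.

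Lower with acetate and not called in GF were D2hgdh, Mcm6, Mlph, Ero1b, Usp40, Dhcr7, Il1rl1, Dbi and Ly86. D2hgdh, the mitochondrial enzyme that oxidises D-2-hydroxyglutarate, was at 26.9, 26.6, 27.7 and 31.2 CPM in SPF, 24.4, 12.9, 22.5 and 19.6 CPM in GF, and 12.2, 10, 10.2 and 11.1 CPM with acetate. It was 2.59-fold lower than in SPF (log2 -1.38 ± 0.18 SE, edgeR adjusted p = 0.00171) and lower than in GF (log2 -0.86, adjusted p = 0.0284), and GF529 was the GF library nearest the acetate range. Mcm6, a subunit of the replicative DNA helicase, was at 18.1, 25, 22.5 and 22.1 CPM in SPF, 16.1, 2.64, 16.3 and 11 CPM in GF, and 2.06, 4.63, 4.95 and 5.59 CPM with acetate (5.13-fold lower, adjusted p = 0.0113). Again GF529 alone among GF libraries was within the acetate range. Of the 25 tested genes of DNA replication and mitosis, Mcm6 was the only one called, where 0.364% of all genes were. The median of the 25 was log2 0.03, with 13 above 0. Mcm6 was not called without GFA523, nor with no filter on low counts (adjusted p up to 0.18).

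Mlph, melanophilin, which ties Rab27a on melanosomes to myosin Va, was at 114, 156, 160 and 95.7 CPM in SPF, 149, 58.9, 153 and 52.6 CPM in GF, and 37.3, 41.5, 31.3 and 36.7 CPM with acetate. Of the GF libraries, GF528 and GF530 lay within the SPF range, and GF529 and GF532 lay between SPF and acetate. Against SPF the acetate level was 3.61-fold lower (log2 -1.85 ± 0.32, edgeR adjusted p = 0.0202), with an adjusted p up to 0.168 under the alternatives, and no call without any 1 library but SPF4. Ero1b, an oxidase that recharges protein disulfide isomerase in the endoplasmic reticulum, was at 35.5, 37.5, 33.2 and 32.3 CPM in SPF, 26.5, 20.9, 28.3 and 11.7 CPM in GF, and 13.5, 9.55, 11.1 and 19.8 CPM with acetate. It was 2.59-fold lower (log2 -1.37 ± 0.25, adjusted p = 0.0159), with GF532 inside the acetate range, and was not called without SPF2, GFA518, GFA523 or GFA524 (up to 0.0855). Usp40, a deubiquitinase, was at 99.6, 104, 97.5 and 106 CPM in SPF, 83.4, 61.5, 86.7 and 94.8 CPM in GF, and 60.2, 65, 70.5 and 70.2 CPM with acetate (1.54-fold lower, adjusted p = 0.0216, and up to 0.102 without any 1 library but SPF1).

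Dhcr7, the last enzyme of cholesterol synthesis, was at 26.5, 19.2, 17.4 and 22.2 CPM in SPF, 16.4, 9.44, 14.4 and 10 CPM in GF, and 9.88, 10.4, 10 and 11.2 CPM with acetate (2.07-fold lower, edgeR adjusted p = 0.0234). It was the only one of 21 tested sterol synthesis genes that was called, and 15 of the 21 lay above 0, against 0.364% called and 7332 of 15113 above 0 over all genes tested. Il1rl1, the interleukin-33 receptor ST2, was at 22.9, 13.6, 13.6 and 14.1 CPM in SPF, 6.57, 12.7, 8.55 and 6.89 CPM in GF, and 8.5, 6.51, 6.29 and 6.03 CPM with acetate (2.36-fold lower, adjusted p = 0.0324). Dbi, the acyl-CoA-binding protein, was at 21.3, 27, 36.1 and 37 CPM in SPF, 33, 21.9, 26.9 and 30.2 CPM in GF, and 13.3, 18.2, 17.6 and 13.9 CPM with acetate (1.94-fold lower, adjusted p = 0.033). For Dhcr7, Il1rl1 and Dbi the SPF and acetate libraries did not overlap, and for Dbi the GF libraries lay among SPF. Ly86, the MD-1 partner of the Toll-like receptor relative RP105, was at 1339 ± 174 CPM (SD, n = 4) in SPF, 981 ± 53.6 in GF and 850.2 ± 209 with acetate (1.59-fold lower, adjusted p = 0.0439). All 4 lost the call without SPF2, SPF4, GFA518, GFA523 or GFA524, and some without others, at adjusted p up to 0.098 for Dhcr7, 0.138 for Il1rl1, 0.15 for Dbi and 0.222 for Ly86.

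The called genes were not spread evenly over the genome. By RefSeq gene positions on mouse build GRCm38.p6, which served here for names, chromosomes, gene order and promoter sequence and not for coordinates of the counts, because the submitters' notes name the human build GRCh38, 13138 (86.9%) of the tested genes and 54 of the 55 called genes could be placed. Chromosome 1 held 14 called genes, 25.9% of those placed, against 5.84% of the genes tested. Chromosome 13 held 9, or 16.7% against 3.97%. None lay on chromosomes 3, 4, 10, 11, 12, 18 and X. Another called gene stood within 20 tested genes on either side for 19 (35.2%) of the 54, against 1638 (12.5%) of 13131 tested genes with a called gene that near. Some of the 19 share exons, as Ugt1a8 and Ugt1a9 do, or have near-identical copies, so their calls may not be separate.

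**Figure D3:**
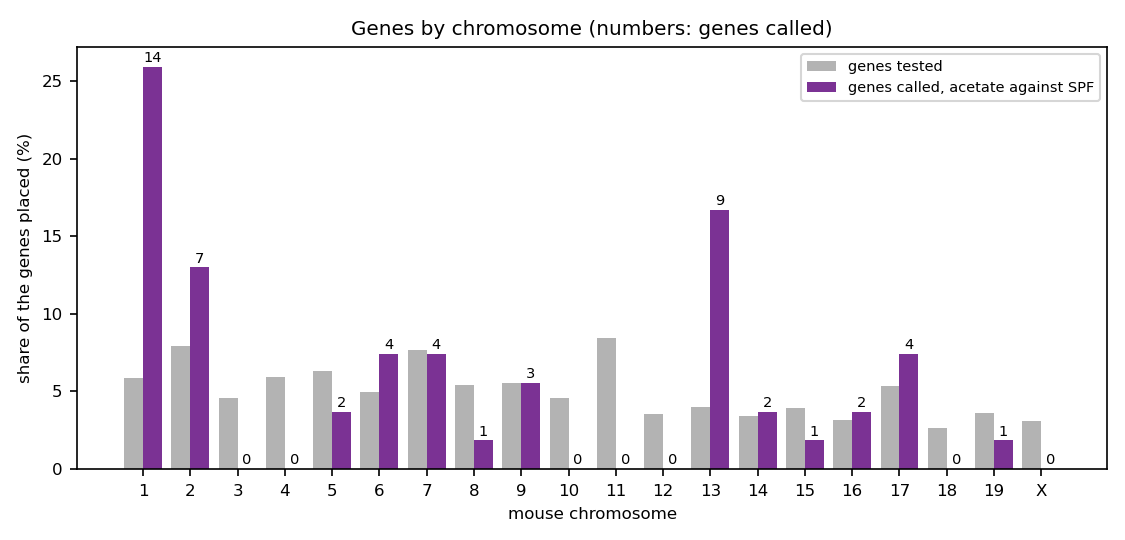
Share of genes in percent (vertical) on each mouse chromosome (horizontal) among the tested genes placed (grey, 13138) and among the called genes placed (purple, 54), with the number called above each bar. Chromosome 1 with 14 and chromosome 13 with 9 called genes stand above their share of the tested genes.

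On chromosome 1 the order was Wdfy1, Serpine2, Usp40, Ugt1a9, Ugt1a8, Glrp1, Arl4c, Mlph, D2hgdh, Dbi and Mcm6, with rises and falls mixed. From Wdfy1 to Mcm6, a span chosen after the values were seen, 145 genes were tested, 11 (7.59%) were called and 24 (16.6%) did not overlap between the groups, against 0.364% and 4.27% of all genes tested. Called genes set the ends of this span, so its counts are a description. On chromosome 13, Lgals8, Ero1b, the gene model Gm18562 and Gpr137b lay together: from Lgals8 to Gpr137b, a span also chosen for its calls, 5 genes were tested, 4 were called, and all 5 did not overlap. H4c17, H3c6, Ly86, Mcur1 and Nnt lay further along that chromosome. Dynlt1b and Tmem181b-ps were adjacent among the tested genes of chromosome 17, with Tmem181c-ps close by.

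The promoters of Glrp1 and Mlph are shown because these called genes of chromosome 1 moved in opposite directions, Glrp1 up and Mlph down. They were numbers 324 and 332 in the order of tested genes there, and so not adjacent. Of the 55 called genes 38 had a promoter in the RefSeq set on build GRCm38.p6, which runs from 250 bases before to 50 bases after each start. Capitals mark the motif found in each, searched on both strands: the AP-1 site TGACTCA in Glrp1 and the E-box CACGTG in Mlph. The Glrp1 window is chr1:88510017-88510316 on the minus strand, and the Mlph window is chr1:90914850-90915149 on the plus strand.
Glrp1: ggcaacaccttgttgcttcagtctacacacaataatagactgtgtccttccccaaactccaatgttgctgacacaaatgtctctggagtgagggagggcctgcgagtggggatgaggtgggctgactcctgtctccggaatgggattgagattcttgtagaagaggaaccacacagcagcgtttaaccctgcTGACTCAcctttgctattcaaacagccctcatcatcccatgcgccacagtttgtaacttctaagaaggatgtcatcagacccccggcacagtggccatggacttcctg
Mlph: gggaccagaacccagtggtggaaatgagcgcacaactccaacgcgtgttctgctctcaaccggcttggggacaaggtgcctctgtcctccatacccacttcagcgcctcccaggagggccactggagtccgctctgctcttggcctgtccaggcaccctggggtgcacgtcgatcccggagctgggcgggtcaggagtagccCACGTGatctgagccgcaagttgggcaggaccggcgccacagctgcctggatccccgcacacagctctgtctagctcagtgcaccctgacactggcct
TGACTCA was present in 1709 (5.20%) of 32851 promoters of this length and in 4 (10.5%) of the 38, namely Capn2, Dhcr7, Glrp1 and Tnfsf13b. CACGTG was present in 2349 (7.15%) and in 2 (5.26%) of the 38, Dhcr7 and Mlph. The shares over all count promoters, while those of the 38 count genes, where any promoter of a gene could hold the motif. They are therefore not like for like. These are matches of letters, and nothing was measured here on binding at either.

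Levels of some of these genes were alike in both regions of an animal. The label numbers tie cortex and hippocampus libraries to the same wild-type mice, and GF529, GF530 and GF532 have both. Mlph in hippocampus was at 53.2 CPM in GF529, 146 in GF530 and 54 in GF532, next to 58.9, 153 and 52.6 CPM in their cortex. SPF hippocampus was at 84.4 to 133 CPM and acetate at 28.3 to 45.6 CPM. Wdfy1 in hippocampus was at 94.2 CPM in GF529, inside the acetate range of 86.4 to 116, and at 53.1 and 69.7 CPM in GF530 and GF532, between acetate and SPF (22.8 to 39.2). For Mcm6 the hippocampus level of GF529 was 4.06 CPM, against 12 and 16.9 CPM in the other two. So GF529, nearest to acetate in cortex for Wdfy1, Mcm6 and D2hgdh, was also nearest in hippocampus for Wdfy1 and Mcm6. For D2hgdh it was not: GF529 was at 14.4 CPM in hippocampus and GF530 at 10.3 CPM, inside the acetate range of 10.2 to 12.7, while GF530 was at 22.5 CPM in cortex.

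Gpr137b-ps, the near-identical copy of Gpr137b, showed this most plainly. It was at 79, 91.2, 80.3 and 83.6 CPM in SPF, 46.6, 43, 46.8 and 10.1 CPM in GF, and 10.7, 13.3, 11.9 and 48 CPM with acetate. The levels fell into 3 ranges, with GF532 among the low acetate animals and GFA525 among the GF animals, and SPF apart from both. With GFA525 inside the group the difference from SPF did not pass (log2 -2.01 ± 0.56 SE, 95% interval -3.25 to -0.78, edgeR adjusted p = 0.333), and without GFA525 it did (adjusted p = 0.00232). Hippocampus gave the same order in the same animals: 8.48 CPM in GF532 and 8.47, 10.7 and 10.3 CPM in GFA518, GFA523 and GFA524, against 46.4 in GFA525 and 41.7 and 45.9 in GF529 and GF530. In 5xFAD hippocampus, from other mice, GFA521 was at 44.8 CPM and the other 3 acetate animals at 7.65 to 10.9 CPM. The untreated GF526, GF527 and GF531 were at 76.8, 40.5 and 7.19 CPM, and 5xFAD SPF at 63.2 to 76.6 CPM. GF526 thus lay beside SPF, and its Gpr137b, at 51.4 CPM, was within the 5xFAD SPF range of 48.8 to 61.5 CPM. No cortex or hippocampus library lay between 13.3 and 40.5 CPM.

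Gpr137b itself ran the other way, highest where the copy was lowest: 165 to 179 CPM in GFA518, GFA523 and GFA524 against 121 in GFA525. The sum of both was 133 to 151 CPM in SPF, 133 to 163 in GF and 169 to 192 with acetate in cortex. In whole brain, where Gpr137b was higher in GF and Gpr137b-ps lower, the sum was 74.2 to 77 CPM in SPF and 71.9 to 78.8 CPM in GF. How reads were shared between the copies was not tested. Ero1b, 3 tested genes away from Gpr137b, had its highest acetate level in GFA525 in both regions (19.8 CPM in cortex, 18.8 in hippocampus, against 5.67 to 13.5 in the others). The labels give no colony, litter or substrain for any animal, so colony, germ-free housing and acetate cannot be told apart for genes whose level is carried by the animal.

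**Figure D4:**
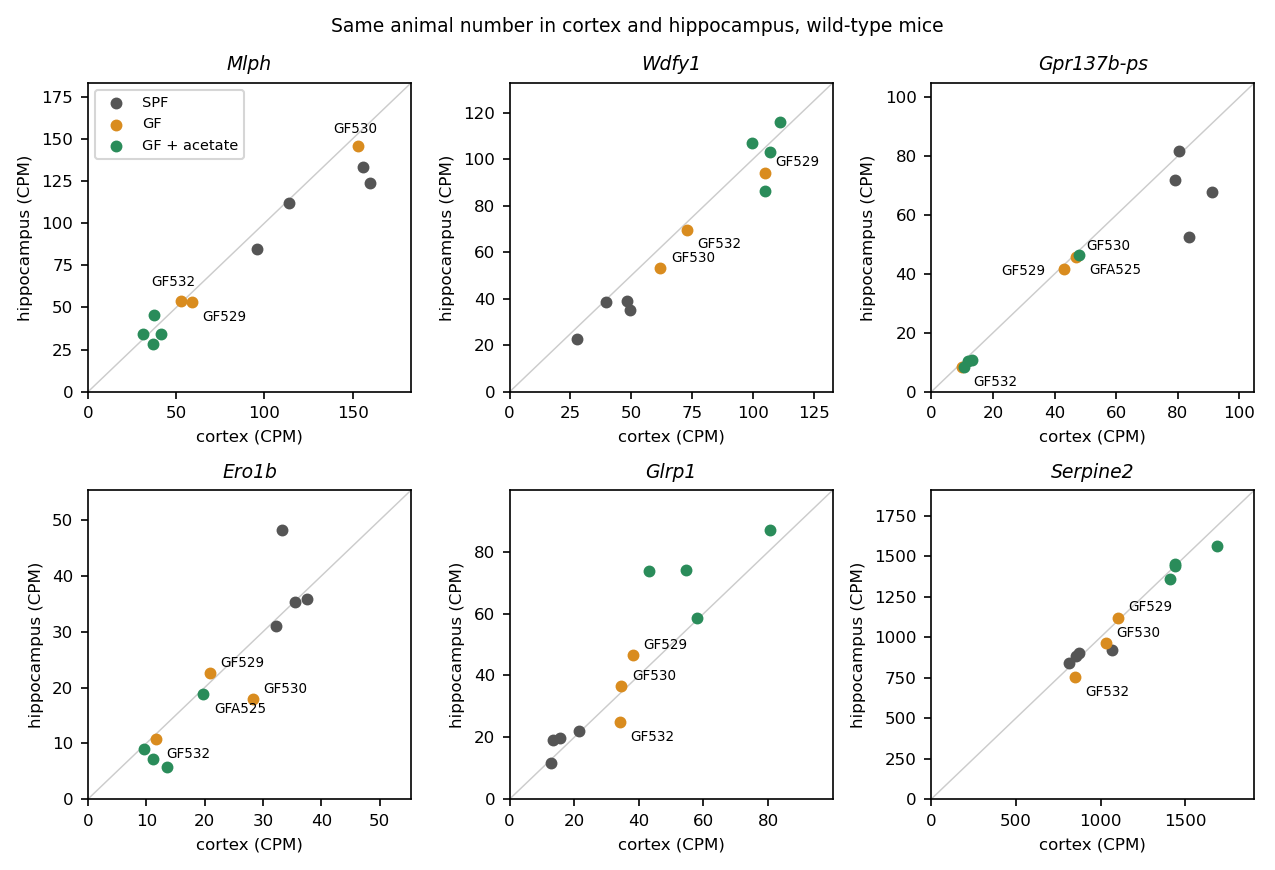
Level in cortex (horizontal, CPM) against level in hippocampus (vertical, CPM) of the same wild-type animal number for 6 genes, with 4 SPF, 3 GF and 4 acetate animals and a line of equal levels. Gpr137b-ps falls into a low, a middle and a high set of animals in both regions, with GFA525 at 48 and 46.4 CPM beside GF529 and GF530, and GF532 at 10.1 and 8.48 CPM beside the other acetate animals.

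The 55 genes were looked up in other libraries. In wild-type hippocampus, from the same animals, 54 were tested and all 54 had the sign they had in cortex, with a median of log2 1.13 for those higher in cortex and -1.16 for those lower. Of these 15 were called in the same direction (13 higher, 2 lower) and 0 in the other, where 21 (0.123%) of 17063 genes were called, 0.0996% higher and 0.0234% lower. Glrp1 (log2 2.02, edgeR adjusted p = 0.000147), Wdfy1 (1.60, 0.000854), Emp3 (1.38, 0.00471), Serpine2 (0.71, 0.0216), Arl4c (0.87, 0.0216), Lag3 (-1.15, 0.0151) and Mlph (-1.68, 0.0216) were among them. So were Ugt1a8, Ugt1a9, the gene model Gm4742 and Tmem181c-ps, all at 0 in every SPF cortex library. These passed the cortex filter through the GF and acetate libraries alone, and count here without being separate support. In DESeq2 30 of the members were called, and 6 in a fit without SPF4, with few counts, and GFA518, with few genes detected. The share called over all genes was not counted in either fit, so both counts stand without a background. Without the library labelled 5xFAD SPF2152, which is part of the main fit, 17 were called, where 25 (0.147%) of 16993 genes were. The difference of acetate-treated germ-free from SPF mice was also compared between regions, with the animal as a block and no untreated GF libraries. In edgeR 0 of 15651 genes differed between cortex and hippocampus, and 0 in DESeq2. An unadjusted p under 0.05 in edgeR was reached by 783 (5.00%), 4 of the 54 members among them.

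In 5xFAD hippocampus, from other animals, acetate-treated GF mice were also compared with SPF mice. Of 54 genes tested 47 had the cortex sign, with medians of log2 0.74 and -0.48, and 8 were called in the same direction and 0 in the other, where 9 (0.0527%) of 17063 were called, 0.0469% higher and 0.00586% lower. Those above 5 CPM were Gpr137b, Glrp1, Tmem181b-ps, Serpine2 and Arl4c. The rest, Ugt1a8, Gm4742 and Tmem181c-ps, were at 0 in every SPF cortex library. Serpine2 was at 829 to 1380 CPM in 5xFAD SPF, 1490 to 1660 in GF and 1640 to 2260 CPM with acetate (log2 0.70 ± 0.13 SE, adjusted p = 0.0438), the lowest SPF value being that of SPF2152. Without SPF2152, Serpine2 did not pass (log2 0.57, adjusted p = 0.0584), nor did Tmem181b-ps (adjusted p = 0.0665). Then 5 of the 54 were called, where 0.053% of 16993 genes were, 46 had the cortex sign, and the medians were log2 0.62 and -0.40. The count of 8 fell to 1 without SPF2140 or GFA519 and to 3 without SPF2153. The share called over all genes was not counted in these fits. D2hgdh (log2 -0.80), Mlph (-0.84), Lag3 (-0.09) and Mrc1 (-0.19) did not pass there, with adjusted p from 0.467 to 1, and did not pass without SPF2152.

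Whole brain holds untreated GF and SPF mice 6 to 12 weeks old in a separate table, with no acetate group. Of 41 genes tested 22 had the cortex sign, 10 were called in the same direction and 1 in the other, where 226 (1.99%) of 11332 were called, 1.02% higher and 0.971% lower. Wdfy1 was at 6.11 to 9.89 CPM in SPF and 99 to 121 CPM in GF (log2 3.72, edgeR adjusted p = 1.82e-08), Nnt at 42.4 to 48.9 and 99.5 to 127 CPM, Gpr137b at 31.8 to 33.3 and 67.1 to 73.2 CPM, and Ly86 at 1470 to 1550 and 642 to 940 CPM. Lgals8, Rassf4, Capg, Emp3, Mcur1 and Htra3 were the others called as in cortex. Upk1b went the other way, at 160 to 195 CPM in SPF and 106 to 150 CPM in GF (log2 -0.50, adjusted p = 0.0291), next to means of 110 and 111 CPM in SPF and GF cortex. Serpine2 (log2 -0.004), Mlph (0.12), Mcm6 (0.02) and Mrc1 (0.26) did not pass in whole brain.

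Calls in the gene lists stand beside 0.364% of all genes tested called against SPF with acetate. In GF 0.873% of all genes were called higher than in SPF and 0.84% lower. Among 30 tested homeostatic microglia genes only Lag3 was called, and the median was log2 0.03, against -0.23 and 6 calls lower and 1 higher in GF. Olfml3, a secreted olfactomedin-family protein, was at 2736 ± 257 CPM (SD, n = 4) in SPF, 1536 ± 113 in GF and 2545 ± 309 with acetate. Its difference from SPF was log2 -0.11 with a 95% interval of -0.32 to 0.09. The Fc receptor-like gene Fcrls was at 3095 ± 419, 1631 ± 300 and 2495 ± 90.3 CPM, with an interval of -0.57 to -0.07 (edgeR adjusted p = 0.515), and the matrix protein gene Sparc at 3357 ± 342, 2492 ± 266 and 3705 ± 431 CPM, with an interval of -0.09 to 0.35. All 3 acetate-to-GF differences passed in edgeR, the largest adjusted p being 0.0176 for Fcrls, where 147 (0.973%) of all genes passed. They share the GF libraries with the GF comparison. The 3 genes were named with earlier results of these data known, so nothing is read from their passing. P2ry12 (log2 0.21, -0.03 to 0.46) and Tmem119 (0.16, -0.08 to 0.41) did not pass.

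The list of genes that respond to glucocorticoids was put together with earlier results of these data known. With acetate 0 of 18 were called (median log2 -0.08), where 0.364% of all genes were. In GF 7 were called higher and 1 lower (median 1.63), where 0.873% and 0.84% of all genes were. Zbtb16, a zinc finger repressor, was at 0, 0, 0.345 and 0.0605 CPM in SPF, 17.2, 41.4, 15.1 and 8.07 CPM in GF, and 1.57, 0.0936, 0.0480 and 0 CPM with acetate. Only GFA518 was above the SPF range. Fkbp5, a co-chaperone of the glucocorticoid receptor, was at 137, 217, 419 and 133 CPM in SPF, 878, 969, 782 and 578 CPM in GF, and 273, 132, 106 and 106 CPM with acetate, so acetate and SPF overlapped. Pik3ip1, an inhibitor of phosphoinositide 3-kinase, was at 9.86 ± 2.06 CPM (SD, n = 4), 56.4 ± 31 and 13.1 ± 2.01 CPM. None of the 3 passed against SPF, and the intervals of the log2 difference were wide for Zbtb16 (-0.81 to 4.95) and Fkbp5 (-1.49 to 0.37).

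Of 30 disease-associated microglia genes tested Serpine2 alone was called (median log2 -0.03), where 0.364% of all genes were. Apoe, the lipid carrier, was at 354, 307, 249 and 305 CPM in SPF, 886, 909, 742 and 346 CPM in GF, and 530, 475, 371 and 569 CPM with acetate. Acetate and SPF did not overlap, yet the difference did not pass (log2 0.67 ± 0.22 SE, edgeR adjusted p = 0.431), except in a fit of the 2 groups alone (0.0477, and up to 0.662 in the other alternatives). Clec7a, the beta-glucan receptor dectin-1, was at 8.65, 10.2, 11 and 10.8 CPM in SPF and 19.3, 14.7, 25.5 and 26.1 CPM with acetate, also without overlap (log2 1.06 ± 0.24, adjusted p = 0.0762). Clec7a passed in DESeq2 (0.00337), with no filter, at a mean of 5 CPM and with the 2 groups alone, and not in the other alternatives (up to 0.274). Trem2 (log2 -0.19), Cst7 (-0.33) and Itgax (0.65) did not pass, with adjusted p from 0.657 to 0.888.

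All 11 tested MHC class II genes had values above 0 (median log2 0.22), where 7332 of all 15113 genes did, and 0 were called, where 0.364% of all genes were, with H2-Ab1 at 5.87 ± 1.76 CPM (SD, n = 4) in SPF and 11.4 ± 1.49 with acetate (edgeR adjusted p = 0.0916). H2-Ab1 passed in DESeq2 and without SPF2. The 78 cytosolic ribosomal protein genes had 0 calls, with 6 above 0 and a median of log2 -0.18, against the same 7332 of 15113 genes above 0 over all, and the 8 tested mitochondrial DNA-encoded genes had 0 calls, none above 0 and a median of -0.28.

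None of 36 complex I, 4 complex II and 34 complex III to V genes was called, with medians from log2 -0.04 to 0.03. The succinate dehydrogenase subunits had intervals of -0.17 to 0.23 for Sdha, -0.30 to 0.16 for Sdhb, -0.20 to 0.26 for Sdhc and -0.21 to 0.34 for Sdhd. Of 29 tested genes listed for the TCA cycle and pyruvate entry, Nnt was called higher and D2hgdh lower, and the other 27 did not pass. Over all genes tested 0.225% were called higher and 0.139% lower. By their functions given above, neither Nnt nor D2hgdh is a step of the cycle itself. None of the 13 tested genes for acetate uptake and acetyl-CoA was called (median 0.03): the acetyl-CoA synthetases Acss1 (168 ± 29 CPM SD in SPF, n = 4, and 173 ± 16 with acetate) and Acss2 (9.79 ± 2.08 and 9.38 ± 3.07), and the carrier Slc16a1 (29.2 ± 7.42 and 25 ± 2.22) did not pass. None of 29 histone acetyltransferases and deacetylases was called (median 0.08).

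**Figure D5:**
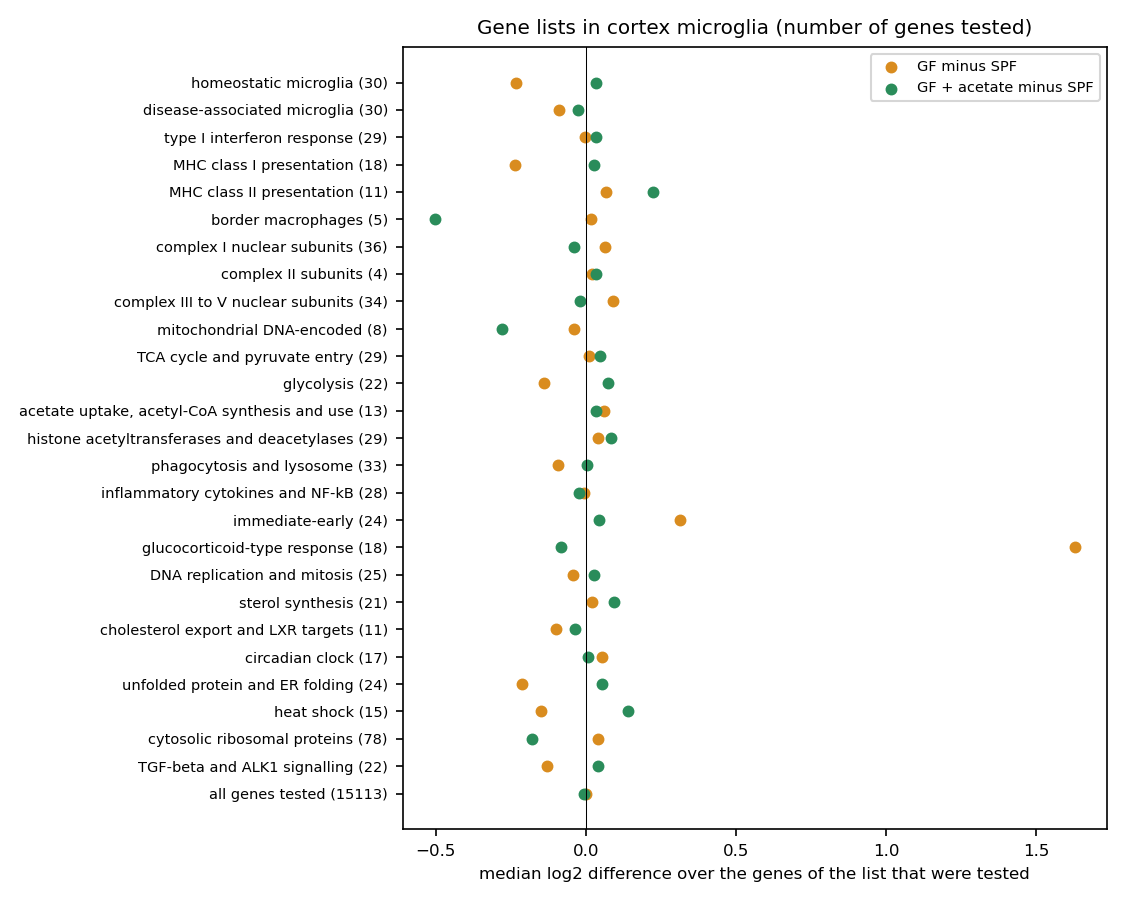
Median log2 difference (horizontal) over the tested genes of each list (vertical, number tested in brackets) in cortex, for GF minus SPF (orange) and GF plus acetate minus SPF (green), which share the SPF libraries. The glucocorticoid-type list lies at 1.63 in GF and at -0.08 with acetate, and border macrophage markers (5 tested) lie at -0.50 with acetate.

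The other lists had between 0 and 1 call each against SPF, where 0.364% of all genes tested were called. Type I interferon, MHC class I, glycolysis, immediate-early, LXR target, circadian clock and heat shock genes had 0. Phagocytosis and lysosome genes had Gpr137b, TGF-beta signalling Kcp, protein folding in the endoplasmic reticulum Ero1b, and inflammatory genes Il1rl1, each of them described above. Medians of these 11 lists ran from log2 -0.04 to 0.14, against -0.01 over all genes tested.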

How the data were processed

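RNA of sorted microglia was measured by RNA sequencing. The deposited values are whole-number read counts per gene, made by the authors with STAR 2.5.2b and featureCounts 1.5.1, per the submitters' processing notes. These notes name the human build GRCh38, while the gene symbols are of mouse, and the strand setting is not given in the sources used here. Cortex and hippocampus form one table of 34 libraries, and whole brain a separate one, so tests were run within a table. Libraries were grouped by the labels and columns matched by name.

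Genes were kept with edgeR's filterByExpr (minimum count 10), scaled by TMM and tested in edgeR 4.0.16 (quasi-likelihood, robust, R 4.3.3, limma 3.58.1) on the 12 cortex libraries, with Benjamini-Hochberg adjustment over all genes and a threshold of 0.05. Standard errors and intervals of 95% follow from the F statistic. The scripts were tested on simulated data. CPM used TMM factors set over the 12 cortex libraries for cortex and over all 34 for hippocampus, and carry counting error besides animal spread. Floors of 3 counts per library (0.153 CPM in SPF, 0.146 with acetate) cover counting error only. Each of 18 replicate pairs differed by more than sampling noise (chi-square per degree of freedom from 12.87).

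Called genes with a mean of at least 5 CPM that are no gene models were named, with every library's value for the 12 of smallest p in each direction, plus up to 4 genes per list and a fixed set. Members and lists were chosen with earlier results of these data known. Cortex and hippocampus libraries of an animal share its number, so the animal was a block in the test between regions. Over 8 animals their residuals correlated at 0.0222 to 0.217, and each was nearest to its own number. Alternatives were DESeq2 1.42.0, RLE scaling, no filter, a mean of 5 CPM, the 2 groups alone and single libraries left out. Whole-brain samples SPF and GF share numbers only.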

Additional observations from a re-analysis of the deposited data

Results flagged for a closer look

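In 10 (6.06%) of 165 cortex groups of 4 libraries of the 55 called genes, 1 library lay far from the rest of its group, where chance gives about 1 in 20. Groups at 0 in every library count among the 165 and could not be flagged, so these shares are not like for like. Serpine2 was at 1690 CPM in GFA525, next to 1440 in the nearest acetate library, and all 4 were above SPF. Hmgn3 was at 10.9 CPM in GFA524 (nearest 7.68) and at 5.23 CPM in GF529 (nearest 9.71). GF529 was also low for Dynlt1b, at 5.64 CPM (nearest 8.43), and for the gene model Gm48027, at 1.9 CPM (nearest 3.58). Il1rl1 was at 22.9 CPM in SPF1, next to 14.1, and Mcur1 at 114 CPM in GFA523, next to 71.2. Near or under the floor of 3 counts were Slc2a10 at 0.104 CPM in SPF1 and Ifi208 at 0.0498 CPM in GF528, each with the others at 0. Abca14 was at 1.35 CPM in SPF1, next to 0.605.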

How the results depend on the processing

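The count of 55 genes called in cortex became 136 in DESeq2 and 85 with no filter on low counts, and 25 to 55 with 1 library left out. Of the 55, 23 stayed called in every alternative that tested them. Without SPF2 83.3% of calls were higher, without GFA524 78.8%, without GFA523 76%, without GFA525 74.3% and without GFA518 73.7%, against 61.8% with all libraries. The 15 calls in wild-type hippocampus became 30 in DESeq2, 8 with the 2 groups alone, 6 without SPF4 and GFA518, 17 without the library labelled 5xFAD SPF2152 (chosen after seeing the data), and 9 to 15 with 1 library left out. The 8 in 5xFAD hippocampus became 4 at a mean of 5 CPM, 1 with the 2 groups alone, and 1 to 8 with 1 left out. The 10 in whole brain became 5 with the replicate block, where same-numbered samples share only a number (r from -0.0327 to -0.0115, none nearest to its own number), and 7 to 10 with 1 left out. Except without SPF2152, the share called over all genes was not counted for these alternatives of the look-ups. The region difference of 0 became 7 with no filter and was 0 without the replicate block. Among uncalled genes some values crossed 0 with 1 library left out: the log2 difference of Zbtb16 ran from -0.9439 to 4.277, Sdha from -0.0135 to 0.125, Sdhb from -0.1318 to 0.04802, Sdhc from -0.02687 to 0.0856, Sdhd from -0.04411 to 0.1813, Acss1 from -0.0568 to 0.1272 and Acss2 from -0.2755 to 0.08139. The cause of these shifts was not tested. In genes under 5 CPM, a level near the floor of 3 counts limits the fold.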
